A study of Mus musculus with 8 samples.

Results

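The strong hubs described here are 403 regions of the mouse genome where 3 chromatin remodelers, Brg1, CHD4 and Snf2h, all gave tall signals in the same cells. They were chosen in steps from the 6 hotspot lists, 1 for each immunoprecipitated library, where a hotspot is a stretch of genome that the authors listed as enriched for tags. Hotspots that overlapped by at least 1 bp were merged into 532751 regions, and the 10442 regions holding a hotspot of every list were kept as common regions. In each library the common regions were ranked by the maximum tag density of their tallest hotspot, and a hub is a common region at percentile 67 or higher in all 6 libraries. Hubs are thus 3.86% of the common regions (95% Wilson interval 3.51% to 4.25%, counting error only) and 0.0756% of all merged regions, and they span 899 kb. In each single library, 32.8% to 33.6% of the common regions lie at percentile 67 or higher. Because maximum density in all 6 libraries chose the hubs, their heights are given as a description and support nothing by themselves.

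The series mapped the remodelers by chromatin immunoprecipitation sequencing in 3134 cells, an established murine mammary epithelial line derived from a subclone of line 904.13. All groups were untreated 3134 cells with no further allele or agent given, and differed only in antibody, which was monoclonal Brg1, CHD4 or Snf2h, with 2 libraries each. The 2 inputs, libraries of DNA without immunoprecipitation, were not used here, so at no hub can binding be told apart from signal that an input would share. No label says that the 2 libraries of an antibody came from separate cultures, so the spread between them may be technical. The lists held between 32310 and 293135 hotspots, their lowest Z scores ran from 2.00 to 9.49, and the number of tags behind them is unknown.

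Brg1 is an ATPase of the SWI/SNF complexes, which slide and evict nucleosomes and are known for opening chromatin at enhancers and promoters. CHD4 is the ATPase of the NuRD complex, which joins remodeling to histone deacetylation, and Snf2h is the ATPase of the ISWI complexes, which space nucleosomes in regular arrays. In mammary epithelial cells remodelers act with transcription factors such as the glucocorticoid receptor at regulatory elements. All coordinates below are on mm9. Genes and sequence at these positions were not analysed here.

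Hubs stood at 1.86 to 2.99 times the height of other common regions, comparing medians within a library. Maximum tag density, in the authors' units, ran in Brg1 replicate 1 from 65.4 to 506 over the hubs with a median of 131, against a median of 45.7 over the 10039 other common regions. In Brg1 replicate 2 the hubs ran from 33.7 to 258 with a median of 62.9, against 21.03. The ratio of the medians was highest in the Brg1 libraries. In CHD4 replicate 1 the hubs ran from 25.7 to 425 with a median of 44.03, against 19.4, and in CHD4 replicate 2 from 17.05 to 280.5 with a median of 27.9, against 13.3. In Snf2h replicate 1 they ran from 24.2 to 564 with a median of 36.02, against 19.4, and in Snf2h replicate 2 from 37.1 to 915 with a median of 56.5, against 27.2. Units are not comparable between libraries, so each ratio holds within its own list. In the whole lists, hub hotspots were high but not always at the very top: the median hub lay between percentile 95.7 (Snf2h replicate 1) and 99.6 (CHD4 replicate 2) of all hotspots, and the lowest hub between 85.1 and 97.8.

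**Figure D1:**
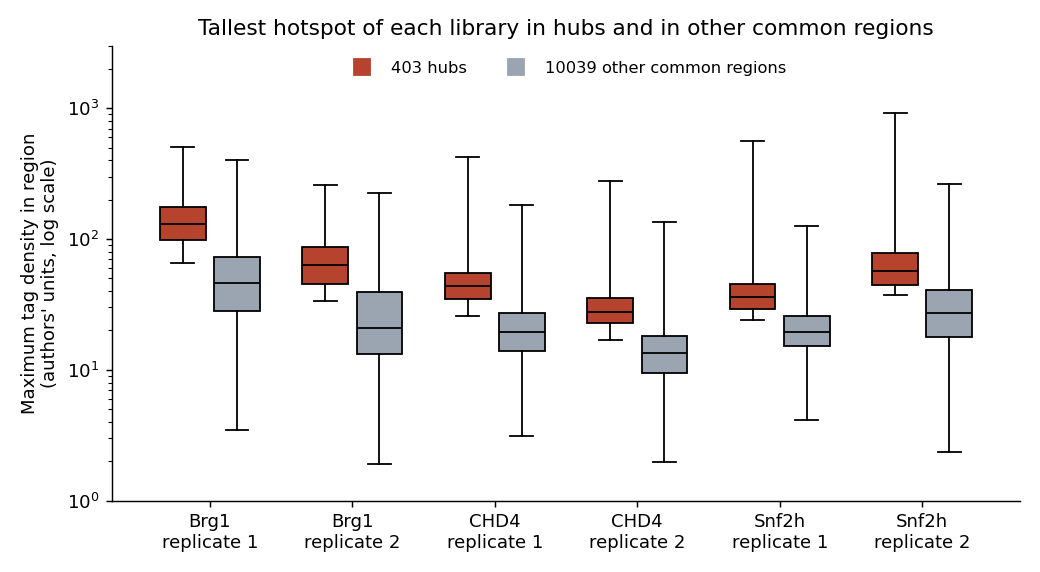
Maximum tag density (log axis, authors' units) of the tallest hotspot in 403 hubs and 10039 other common regions, by library. Boxes give quartiles and median and whiskers the lowest and highest region. The hub boxes sit above the other boxes by the rule that chose them, and the ranges of the groups overlap in every library.

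Hubs held some of the tallest hotspots of each remodeler, and more for CHD4 than for the others. The rule ranked these same heights, so the counts only describe. Of the 100 tallest hotspots of a list, hubs held 29 (Brg1 replicate 1), 21 (Brg1 replicate 2), 46 (CHD4 replicate 1), 34 (CHD4 replicate 2), 27 (Snf2h replicate 1) and 30 (Snf2h replicate 2). Over whole lists, hubs held 0.553%, 0.197%, 1.49%, 0.186%, 1.58% and 0.733% of the hotspots, in that order of libraries. The remaining tall hotspots were placed differently from list to list. Among the 100 tallest, 34 and 28 Brg1 hotspots and 27 and 37 CHD4 hotspots lay outside the common regions, against 7 and 5 for Snf2h. A common region needs a hotspot of every list, and the list of Snf2h replicate 1 was the shortest, at 32310 hotspots. Without that library there were 19578 common regions. Hotspots of that list meet its condition by themselves, so these counts are in part set by the filter. No share over whole lists was taken for hotspots outside common regions, so these counts are not read as a difference between antibodies. Most of the tallest Snf2h hotspots, 66 and 65, lay in common regions that were not hubs because at least 1 other library was lower.

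The hubs were the intersection of 3 sets of very different overlap. Both Brg1 libraries were at percentile 67 or higher at 2586 common regions (24.8%), both CHD4 libraries at 2437 (23.3%) and both Snf2h libraries at 2286 (21.9%). Brg1 and CHD4 were high together at 1498 of these regions, CHD4 and Snf2h at 977, and Brg1 and Snf2h at 504. Of the Brg1-high regions, 57.9% were CHD4-high, against 11.95% of the regions that were not Brg1-high. By contrast, 19.5% of the Brg1-high regions were Snf2h-high, against 22.7% of the regions that were not Brg1-high. Brg1 and Snf2h were high with CHD4 lower at only 101 regions, and the hubs make up the other 403 of their 504 shared regions. At 5709 common regions (54.7%) no antibody was high in both libraries.

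**Figure D2:**
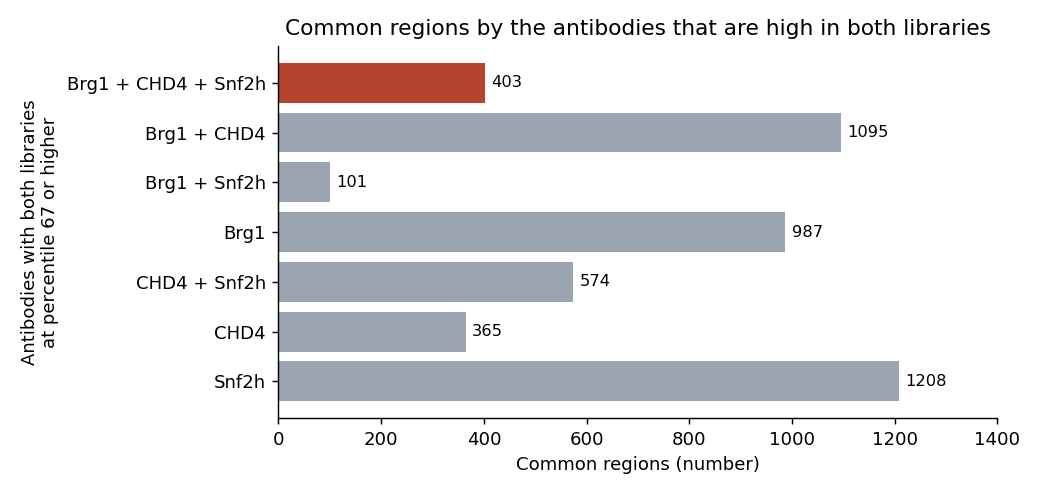
Number of common regions in which the named antibodies, and no other, are at percentile 67 or higher in both libraries. The bar of all 3 antibodies is the 403 hubs. Brg1 with Snf2h alone is the shortest bar at 101, and Snf2h alone the longest at 1208.

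Height was also read in libraries left out of the choice. Common regions were chosen by the 4 libraries of 2 antibodies and then read in the 2 libraries of the third. All 6 lists still define the common regions, and the regions high in all libraries are the same 403 hubs each time, so what varies is how many regions were chosen and the share elsewhere. Chosen by Brg1 and Snf2h, 504 regions were high in both CHD4 libraries at 80.0% (95% Wilson interval 76.2% to 83.2%), against 20.5% of the other common regions. Their median percentile was 90.9 in CHD4 replicate 1 and 90.4 in replicate 2, and 0.397% and 1.39% of them lay below percentile 33. So a place tall for both Brg1 and Snf2h was, in these libraries, usually tall for CHD4.

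The other 2 choices gave smaller gaps. Chosen by CHD4 and Snf2h, 977 regions were high in both Brg1 libraries at 41.2% (38.2% to 44.4%), against 23.1% elsewhere, with median percentiles of 71.6 and 64.9. Chosen by Brg1 and CHD4, 1498 regions were high in both Snf2h libraries at 26.9% (24.7% to 29.2%), against 21.1% elsewhere, with median percentiles of 65.1 and 57.1. The last gap, 5.85 percentage points, was small and turned with the measure: ranked by Z score the share was 18.7% against 20.7%, and with lists of equal length it was 20.4% against 22.1%. The gap was positive for 3 of 3 antibodies. No p is given, since the 3 shares rest on the same 403 regions and an exact sign-flip test of 3 antibodies cannot go below 0.25. With ranks taken within each chromosome the shares were 77.3% against 20.7% for CHD4, 38.8% against 23.4% for Brg1 and 24.1% against 21.1% for Snf2h.

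**Figure D3:**
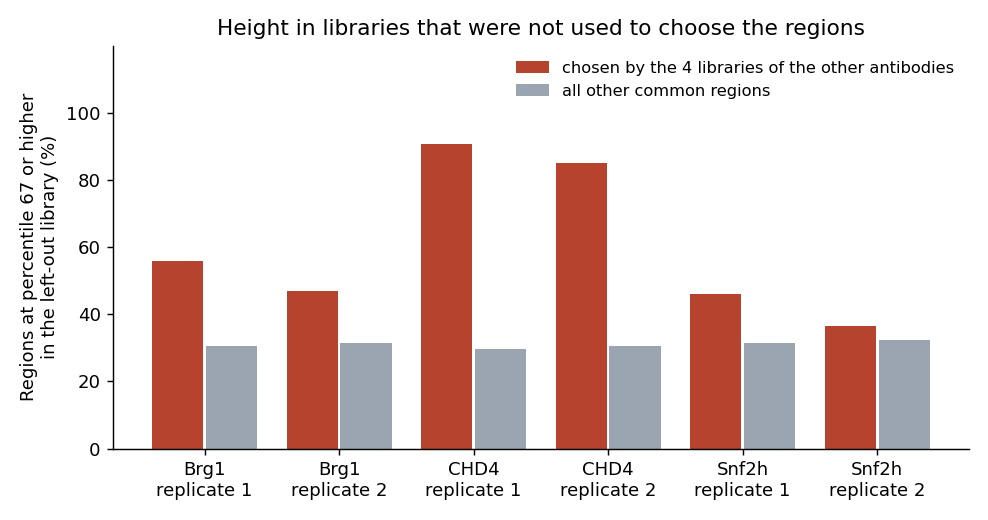
Percent of regions at percentile 67 or higher in each library of the left-out antibody, for regions chosen by the 4 libraries of the other antibodies and for all other common regions. The CHD4 bars reach 90.7% and 85.1% for the chosen regions, and the Snf2h replicate 2 bars are closest together, at 36.6% and 32.3%.

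The Snf2h libraries accounted for most near misses. At 711 common regions 5 of the 6 libraries were at percentile 67 or higher, and the library that fell short was Snf2h replicate 2 at 288 of them, Snf2h replicate 1 at 145 and Brg1 replicate 2 at 143. Brg1 replicate 1 was short at 55, CHD4 replicate 2 at 54 and CHD4 replicate 1 at 26. In Snf2h replicate 2 the median percentile of the regions it missed was 48.4, and in the other libraries it lay between 54.1 and 58.1. Common regions were defined anew where a library was left out, so the number of hubs was 1227 without Snf2h replicate 1, 717 without Snf2h replicate 2, 608 without Brg1 replicate 1, and between 461 and 585 without each of the others. Chosen by the 3 libraries numbered 1, 1008 regions were high in all 3 libraries numbered 2 at 40.0% (37.0% to 43.0%), against 2.79% of the other common regions. In the reverse choice, by the libraries numbered 2, 666 regions were high in all 3 libraries numbered 1 at 60.5% (56.7% to 64.2%), against 6.19%. Both ways the regions high in all 6 libraries are the same 403 hubs, by the ranks that the rule used. These shares therefore only describe, and the intervals give counting error only. For the regions chosen by the libraries numbered 1, the share was 84.0% in CHD4 replicate 2, 79.8% in Brg1 replicate 2 and 63.4% in Snf2h replicate 2.

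Hubs varied among themselves in how evenly the 6 libraries rose. The gap between the highest and the lowest of a hub's 6 percentiles had a median of 20.6 points, and it was under 10 points at 49 hubs. All 6 percentiles were 80 or higher at 122 hubs, 90 or higher at 33 and 95 or higher at 9. CHD4 had the highest mean percentile of the 3 antibodies at 170 hubs (42.2%), Brg1 at 130 (32.3%) and Snf2h at 103 (25.6%). In other common regions these shares were 20.4%, 36.7% and 42.9%. Snf2h had the lowest at 195 hubs (48.4%), Brg1 at 156 (38.7%) and CHD4 at 52 (12.9%), against 39.2%, 36.0% and 24.8% in other common regions. The Brg1 shares were thus near those of other common regions. These percentiles are the ones the rule ranked, so the counts only describe. Across the 403 hubs, which share libraries and are truncated by the rule, Spearman's rho of maximum density averaged 0.660 for library pairs of one antibody, 0.432 for Brg1 with CHD4, 0.274 for CHD4 with Snf2h and -0.0818 for Brg1 with Snf2h. Over all common regions the same averages were 0.713, 0.592, 0.389 and 0.108, and choosing regions by height narrows the range on which rho is taken.

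The 5 hubs of highest mean percentile were also the 5 of highest minimum percentile, and each held exactly 1 hotspot of every list. On chromosome 8 at 20019637 to 20020624 Brg1 reached a maximum tag density of 269.9 in replicate 1 and 142 in replicate 2, CHD4 reached 425 and 280.5, and Snf2h reached 564 and 915. Its nearest match, 234 kb away at 19784321 to 19785311 on the same chromosome, reached 239.7 and 132, 214 and 192, and 304 and 580 in the same order. These neighbours topped the common regions mainly through CHD4 and Snf2h, with Brg1 at percentiles 99.1 to 99.6. The hub on chromosome 2 at 167399647 to 167401004 reached 266 and 111, 117 and 52.6, and 69.96 and 187. The hub on chromosome 6 at 114838649 to 114839661 reached 254 and 139, 96.04 and 54.1, and 60.3 and 115. The hub on chromosome 11 at 3059416 to 3060243 reached 208 and 114, 155 and 112, and 120 and 118. The lowest of the 6 percentiles was 98.2 or higher at each of these 5 hubs, in Brg1 replicate 2 at 4 of them and in Snf2h replicate 1 on chromosome 6.

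At the edge of the rule the values changed little. The hub that passed by least, on chromosome 2 at 118369895 to 118372994, was at percentile 67.1 in Brg1 replicate 2 and between 71.9 and 93.8 in the other libraries. The hub on chromosome 11 at 81988116 to 81988991 was also at 67.1 in Brg1 replicate 2, and the hub on chromosome 4 at 11248536 to 11250255 was at 67.3 there and at 86.1 to 99.6 elsewhere. Just outside, chromosome 16 at 20425662 to 20427533 was at 66.97 in Brg1 replicate 2 and between 81.5 and 98.3 in the others. Chromosome 3 at 104770146 to 104771416 and chromosome 11 at 94840105 to 94840858 missed in CHD4 replicate 1, at 66.9 each.

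Some hubs leaned to one remodeler while still meeting the rule for all. Brg1 led most on chromosome 17 at 23810224 to 23814923, where its percentiles were 99.7 and 98.4, those of CHD4 76.7 and 80.0, and those of Snf2h 67.7 and 74.7. The next 2 Brg1-led hubs lay at 13493340 to 13498289 of chromosome 2 and at 113116264 to 113117767 of chromosome 6, where Brg1 exceeded the mean of the other libraries by 23.8 and 19.4 points. CHD4 led most on chromosome 10 at 95699464 to 95702023, where its percentiles were 95.8 and 99.5, against 79.9 and 82.1 for Brg1 and 71.9 and 73.6 for Snf2h. It led next at 87445043 to 87445875 of chromosome 8 and at 84480860 to 84481934 of chromosome 17, by 18.6 and 17.5 points. Snf2h led most on chromosome 6 at 13557307 to 13558491, at 98.2 and 99.2, against 69.5 and 69.2 for Brg1 and 72.9 and 86.8 for CHD4. It led next at 95020610 to 95023076 of chromosome 3 and at 106132128 to 106135243 of chromosome 11, by 22.1 and 19.8 points. In these 9 hubs the other percentiles lay between 67.3 and 96.9.

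Hubs were wider than other common regions, with a median of 1948 bp (quartiles 1488 and 2787) against 1483 bp (1044 and 2039). Width comes from the same tags as height, and when hotspots were redrawn as 500 bp windows the order turned, to 877 bp against 901 bp. In 339 hubs (84.1%) the tallest hotspots of all 6 libraries shared at least 1 base, against 75.4% of all common regions. The 711 regions high in 5 libraries were at 85.5%, so this was not particular to hubs. The shared stretch had a median of 581 bp in the hubs that had one, and of 509 bp in those 711 regions where shared. The midpoints of the 6 tallest hotspots spanned a median of 403 bp in hubs and 360 bp in other common regions, but among regions of at most 2000 bp it was 260 bp against 274.5 bp. Between 2 libraries the median midpoint distance in hubs ran from 69.5 bp (CHD4 replicate 1 with Snf2h replicate 2) to 223 bp (Brg1 replicate 2 with Snf2h replicate 1). It averaged 129 bp for the 3 pairs of one antibody, 128 bp for Brg1 with CHD4, 126 bp for CHD4 with Snf2h and 148 bp for Brg1 with Snf2h. Libraries of one antibody were therefore about as far apart as Brg1 from CHD4 or CHD4 from Snf2h, by less than the range over pairs.

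In the other 64 hubs the 6 tallest hotspots did not all overlap, and these were wide chains of hotspots, with a median of 3281 bp and 12 hotspots. The widest hub, on chromosome 3 at 89193529 to 89200825, was 7297 bp wide and held 23 hotspots, and the midpoints of its tallest hotspots spanned 3802 bp. The hub on chromosome 11 at 32120118 to 32127156 held 22 hotspots in 7039 bp, with a span of 3400 bp, and Brg1 reached densities of 158 and 84.1 there, CHD4 36.1 and 35.3, and Snf2h 63.7 and 219. The hub on chromosome 15 at 74549490 to 74556471 held 27 hotspots in 6982 bp, with a span of 3644 bp. In such hubs the tallest hotspots of the 6 libraries lay in one cluster, with no base common to all 6. Whether the remodelers lay further apart there than the libraries of one antibody was not tested. Among the 216 hubs of at most 2000 bp, 212 had a base common to all 6 tallest hotspots, against 84.9% of the 7425 other common regions of that width.

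Hubs were spread very unevenly over the chromosomes. Chromosome 11 held 59 of the 403 hubs (14.6%), against 7.53% of all common regions, and 7.51% of its common regions were hubs (95% Wilson interval 5.86% to 9.56%). Chromosome 6 followed with 39 hubs (6.79% of its common regions). Chromosomes 12, 13, 14 and 18 held 2, 2, 3 and 2 hubs, 9 in all among 1500 common regions (0.600%), and chromosome 7 held 6 among 598 (1.00%). Chromosome X held none among 241, which allows a share of up to 1.57% by the 95% Wilson interval and 1.24% by a limit of 3 counts. Of the X regions, 58 were at percentile 67 or higher in at least 1 library and 3 in 4 libraries, and none in 5.

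The share of hubs mostly moved with the height of the rest of the chromosome. Over the common regions that were not hubs, the median percentile averaged over the 6 libraries was 57.0 on chromosome 11 (range over libraries 49.6 to 62.6), 37.2 on chromosome 13, 37.3 on chromosome 14, 40.0 on chromosome 18, 41.5 on chromosome 12 and 15.4 on X (10.00 to 22.4). These percentiles are the ones the rule ranked, so they only describe. Hotspots outside all common regions, which the rule did not use, showed a like order. Their median density, relative to that of their list, averaged 1.44 on chromosome 11 (range 1.21 to 1.73), between 0.814 and 0.926 on chromosomes 12, 13, 14 and 18, and 0.583 on X (0.417 to 0.810). The match was loose for some chromosomes. On chromosome 7, with few hubs, the first measure was 44.0 and the second 1.04. On chromosome 6, where 6.79% of common regions were hubs, they were 51.5 and 1.00. Chromosome 16, at 5.13% hubs, had 53.5 and 0.968, and chromosome 19, at 4.28%, had 50.3 and 1.24. Over the 20 chromosomes, which share the same 6 libraries, Spearman's rho of the hub share with the second measure was 0.738, and over the 19 autosomes 0.694. The inputs, which would give the signal of each chromosome without immunoprecipitation, were not analysed here.

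With percentiles taken within each chromosome, a choice made after seeing the data, there were 354 hubs (3.39% of common regions). Their share per chromosome then ran from 1.51% on chromosome 7 to 5.05% on chromosome 6, with 29 hubs on chromosome 11, 47 on chromosomes 12, 13, 14 and 18, and 9 on X. Of the 403 hubs, 298 (73.9%) were hubs by both rankings, 105 were lost, 30 of them on chromosome 11, and 56 others were gained. The hubs kept had a median mean percentile of 90.2 and those lost 84.3. With the Z score ranked in place of density, 238 regions met the rule, with 22 on chromosome 11 (9.24%), 18 on chromosomes 12, 13, 14 and 18, and 2 on X. Chromosome 11 held 7.53% of all common regions.

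**Figure D4:**
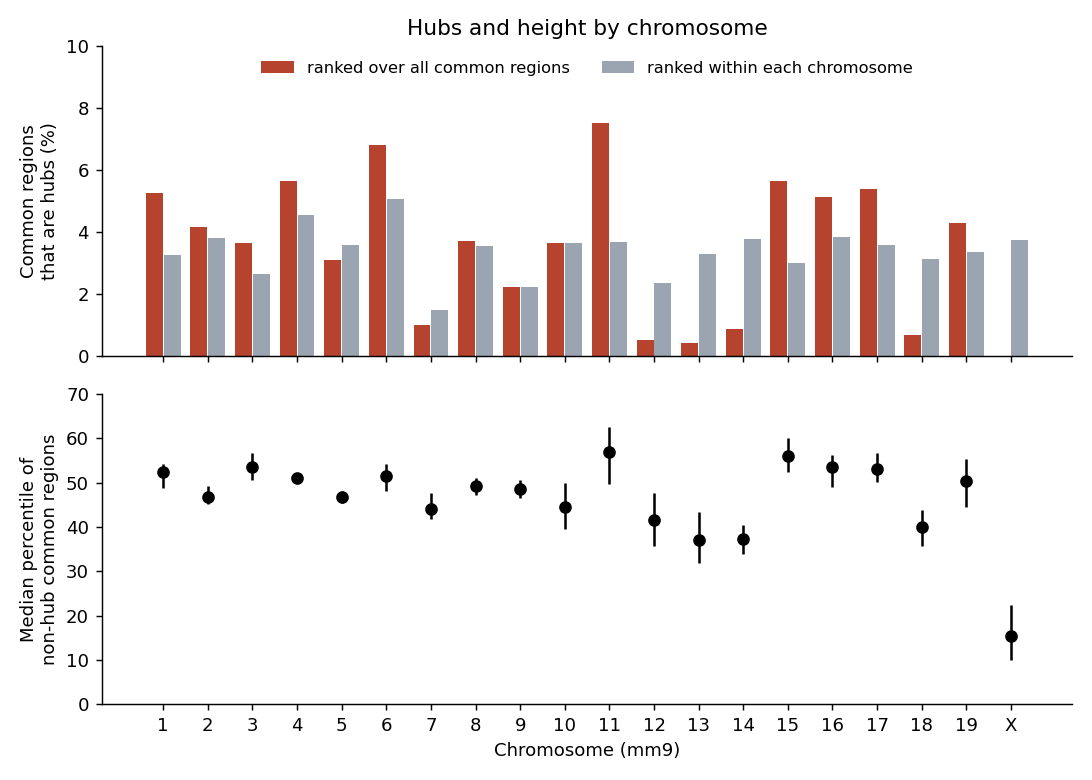
Upper panel: percent of common regions that are hubs on each mm9 chromosome, with percentiles taken over all common regions and within each chromosome. Lower panel: median percentile of common regions that are not hubs, as the mean over the 6 libraries (point) with the lowest and highest library (line). The chromosomes with almost no hubs in the upper panel, 12, 13, 14, 18 and X, sit between 15.4 and 41.5 in the lower one.

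Mean percentiles of the 9 hubs on chromosomes 12, 13, 14 and 18, which were singled out once their values were known, ran from 80.0 to 98.1. On chromosome 13, the hub at 94744979 to 94747564 had Brg1 densities of 209.6 and 77.8, CHD4 densities of 62.8 and 38.8 and Snf2h densities of 88.7 and 144, with a mean percentile of 98.1. The other hub there, at 32771406 to 32773702, had a mean percentile of 89.9. On chromosome 12 the hubs at 70488847 to 70489859 and at 112709291 to 112710667 had 81.1 and 80.0. On chromosome 14 the hubs at 26276813 to 26282038, 65258149 to 65259227 and 65648671 to 65650621 had 87.9, 85.0 and 90.6. On chromosome 18 those at 5132756 to 5135730 and 77952461 to 77953637 had 90.3 and 86.0. All 9 were also hubs with ranks taken within the chromosome. The median over all hubs was 88.9.

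Hubs lay near one another. Another hub was found within 100 kb of 116 hubs (28.8%, 95% Wilson interval 24.6% to 33.4%), against 7.65% of the other common regions (7.15% to 8.19%) and 8.47% of all common regions. Within 10 kb the shares were 6.45% and 1.45%, and within 1000 kb 66.3% and 33.0%. With ranks taken within each chromosome, 22.3% of hubs had another within 100 kb, against 7.23% of other common regions. With the Z score ranked, the shares were 5.88% and 3.58%, so this closeness was largely lost with that measure. Regions close together are dependent on each other, which these intervals do not take into account.

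Joined by gaps of at most 100 kb, 287 hubs stood alone, 86 formed pairs, 18 formed 6 runs of 3 and 12 formed 3 runs of 4. The runs of 4 lay on chromosome 2 (167552259 to 167604387), chromosome 11 (94966449 to 95022588) and chromosome 5 (143582582 to 143724423). The megabase with the most hubs was chromosome 2 from 167000001 to 168000000, where 8 of 19 common regions were hubs (42.1%). With ranks within the chromosome 7 of these 8 hubs met the rule, all but the one at 167088818, and 1 other region was gained. Besides the hub at 167399647 described above, it held hubs at 167394976 to 167396876 and at 167590177 to 167591762, with mean percentiles of 97.0 and 97.6. Near the latter lay the hubs at 167585386 to 167585902, the narrowest of all at 517 bp with a mean percentile of 86.0, and at 167601729 to 167604387, with 94.4. The hub at 167776095 to 167777578 was strong in Brg1, at 299 and 169, and reached 48.9 and 31.9 for CHD4 and 24.9 and 54.6 for Snf2h. The hubs at 167552259 to 167553372 and at 167088818 to 167090231 had mean percentiles of 88.0 and 81.3. The next megabase, chromosome 6 from 113000001 to 114000000, had 5 hubs among 15 common regions, of which 2 regions met the rule with ranks within the chromosome.

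The surroundings of hubs were also taller, in hotspots that the rule did not use. Within 50 kb of a hub, hotspots outside all common regions had a median percentile of 88.3 and 87.8 in their Brg1 lists, 84.03 and 89.98 in their CHD4 lists, and 90.9 and 85.8 in their Snf2h lists. Those within 50 kb of other common regions only had 72.7 and 68.8, 62.2 and 71.5, and 75.1 and 70.6 in the same order. The percentile was higher near hubs in 6 of 6 libraries. Ranked within their chromosome, they had 81.4 to 89.1 near hubs and 62.6 to 74.3 near other common regions. By the percentiles that the rule did use, the 768 other common regions with a hub within 100 kb had a median mean percentile of 66.4, against 47.4 for the 9271 without one. Hotspots were also more numerous around hubs, but this count takes in hotspots of other common regions, which the rule ranked. Its mean within 50 kb was 5.18 in CHD4 replicate 1, against 3.24 around other common regions. The ratio of the means was 1.33 in Brg1 replicate 1, 1.35 and 1.43 in the Snf2h libraries, and 1.04 and 1.06 in the long lists of Brg1 replicate 2 and CHD4 replicate 2, whose lowest Z score is 2.00. These height and density differences are shown without a p, since regions of one genome are not replicates.

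**Figure D5:**
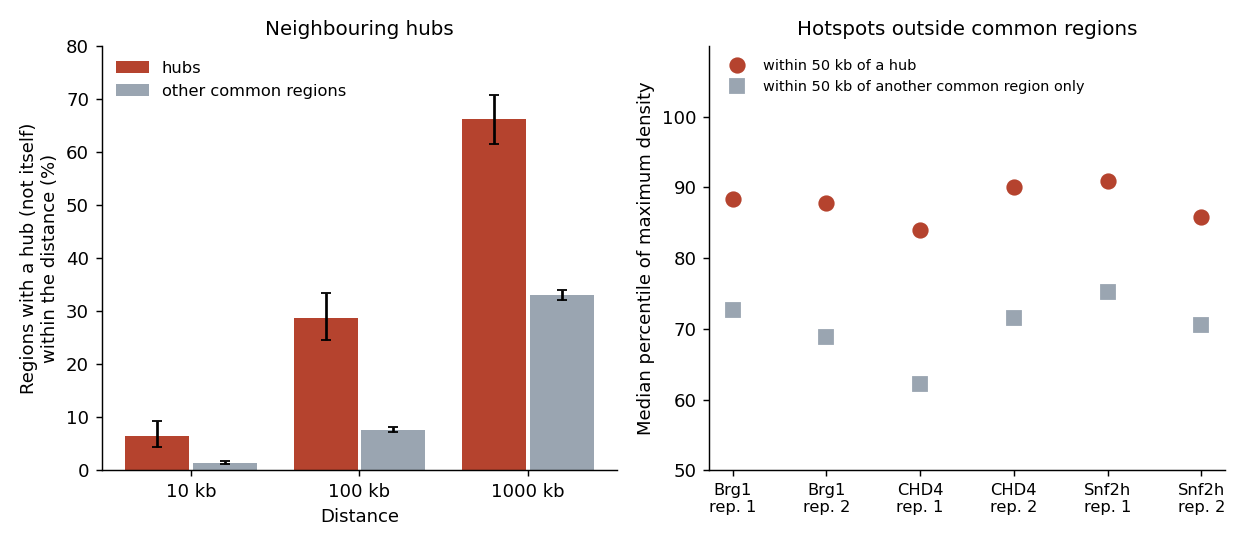
Left: percent of hubs and of other common regions with a hub, other than the region itself, within 10, 100 and 1000 kb, with 95% Wilson intervals for counting error as bars. Right: median percentile, within each list's hotspots outside common regions, of those within 50 kb of a hub and of those within 50 kb of other common regions only; the axis starts at 50. Hubs are above other regions at each distance and in each of the 6 libraries.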

How the data were processed

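Reads were processed with CASAVA 1.6, in a role not given, and the build is mm9, both per the submitters' processing notes. The deposited lists hold 1 library each. Per the file headers the tag density of a hotspot is given as a maximum and an average, a signal of unknown scaling, beside a Z score. No source used here names the caller, its thresholds or the use of inputs, and the extraction text in the labels describes a DNase I assay. Densities, which are the authors' own, served to rank hotspots within a list.

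Intervals were read as closed, merged and ranked (mean rank for ties) with Python 3.11.15, numpy 2.4.6, pandas 2.3.3 and scipy 1.17.1, and drawn with matplotlib 3.10.9. Groups came from the sample titles. Regions were named by a rule: the highest mean and minimum percentiles, those next to the cut, those led by 1 antibody, the widest, and the megabase with the most hubs. The members, lists and tests were chosen with earlier results of these data known. The chain was tested on simulated lists with planted hubs. Alternatives changed the percentile, the ranked measure, width, overlap, list threshold and length, and the libraries.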

Additional observations from a re-analysis of the deposited data

How the results depend on the processing

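Directions mostly held and sizes did not. Hubs exceeded the other common regions in 18 of 18 alternatives for hubs within 100 kb and (against all common regions) for chromosome 11, and in 17 of 18 for width. For chromosome 11 the excess was small with ranks within each chromosome and with the Z score, as given below. For the left-out libraries, the regions compared were those chosen by the other antibodies, not the hubs. Their share exceeded that of the regions not so chosen in 18 of 18 for Brg1 and CHD4 and in 16 of 18 for Snf2h. The exceptions were 500 bp windows, where hubs had a median width of 877 bp, and for Snf2h the Z score ranking (18.7%) and lists of equal length, the 32310 tallest hotspots (20.4%). At percentile 50 there were 1319 hubs (12.6% of common regions), with a median width of 1788 bp. Of these, 48.2% had another within 100 kb, against 17.6% of other common regions. With more hubs any region lies nearer to one, so each share near another is set against that of other common regions. At percentile 75 there were 193 (1.85%), with 17.6% near another, against 4.12%. Ranking by average density gave 3.02% and a width of 1678 bp. Ranking by Z score gave 238 hubs (2.28%), with 5.88% near another, against 3.58%. Chromosome 11 then held 9.24% of the hubs, against 7.53% of all common regions. A common Z score of 9.49 gave 235 (3.15%), with 18.7% near another, against 4.88%. Lists of equal length gave 172 (2.69%), with 17.4% against 5.32%. Without the tallest 1% of common regions the share of hubs was 3.08%, with 21.1% near another, against 6.50%. With ranks within each chromosome, an alternative chosen after seeing the data, the share of hubs was 3.39%. Of those hubs 22.3% were near another, against 7.23%, and 8.19% were on chromosome 11, against 7.53% of all common regions. Libraries numbered 1 gave 1021 hubs (9.27%), a width of 1033 bp and 42.6% near another, against 15.1%. Those numbered 2 gave 3772 (10.6%), 1656 bp and 70.1%, against 37.8%. In these settings the rule had 3 conditions in place of 6, and common regions were defined anew, at 11014 for libraries numbered 1 and 35752 for those numbered 2. Leaving out each library gave 461 to 1227 hubs, 4.37% to 6.52% of common regions, with widths of 1589 to 1872 bp. Of these hubs 30.8% to 53.0% were near another, against 8.65% to 19.7%, and 12.6% to 14.7% were on chromosome 11. Without 1 library the left-out shares ran from 36.1% to 55.7% for Brg1, 63.3% to 90.4% for CHD4 and 23.9% to 45.2% for Snf2h, where an antibody with 1 library left counted by that library alone. Of the 403 hubs, 57.1% remained hubs when ranked by average density and 40.4% when ranked by Z score. The cause of these changes was not tested. No paired analysis was possible because the values come from no test between groups, and no label ties same-numbered libraries to a shared batch. Tag depth is unknown, so it sets no stated limit on these heights.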

Other observations

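Chromosome X had no hub, and the 2 of its common regions with the highest mean percentiles were led by different remodelers. The common region of X with the highest mean percentile, at 11923929 to 11925703 on mm9, was at percentiles 81.0 and 80.2 in the Brg1 libraries and 93.7 and 76.1 in the CHD4 libraries, but at 35.6 and 23.7 in the Snf2h libraries. The next, at 45815219 to 45817683, was at 95.9 and 74.9 in the Snf2h libraries, and at 35.3 and 48.1 in the Brg1 libraries and 64.1 and 64.2 in the CHD4 libraries. With ranks taken within the chromosome the second met the rule for a hub and the first did not. Both were picked once their values were known.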
